A study of Mus musculus with 10 samples.

Results

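Neutrophils are short-lived granulocytes that leave the bone marrow in response to growth factors and chemokines and enter inflamed tissue and tumours. Their granule proteins are made in sequence while the cells mature in the marrow, so that the mRNA of the earliest granules is largely gone from circulating cells, whereas the S100a8 and S100a9 mRNAs remain abundant in mature cells. S100a8 and S100a9 together form calprotectin, a calcium-binding complex that is also made by stressed and keratinizing epithelium.

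The 10 genes described here are S100a8, S100a9, Retnlg, Csf3r, Cd177, Ngp, Camp, Il1b, Trem1 and Mpo, chosen by name for their known expression in neutrophils out of 22180 mouse genes tested. Earlier results of these data were known when they were chosen. All 10 were measured, each by 1 probe set assigned to that gene alone, so no choice among probe sets was needed. No filter on low values was applied, so none of the members was removed. The label of the set is a description of what the genes are known for, and the measurements are of RNA from whole tumours, in which fewer cells of a type and less RNA per cell cannot be told apart. Of 110 other genes of neutrophil biology, described below, 14 (12.7%) were higher and 8 (7.27%) lower at an adjusted p under 0.05 (limma). The shares over all genes were 7.29% and 7.56%. Cxcr2 was among the lower and Ltf among the higher genes. Several of the higher genes, such as Ltf, Retnla and Ptafr, are also known from mammary epithelium or macrophages, so these lists are not of neutrophils alone. Ly6g, Elane and Mmp8 lay in the dimmest 40% of genes and were not called (adjusted p = 0.272, 0.706 and 0.772, limma).

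The tumours came from virgin female FVB mice carrying an MMTV promoter-driven reverse tetracycline transactivator and a doxycycline-inducible transgene that encodes both the Polyomavirus Middle T oncogene (PyVmT) and Cre recombinase. Both genotypes carried these transgenes, and in the Ezh2-/- mice conditional alleles of Ezh2, the methyltransferase of Polycomb repressive complex 2, were deleted by Cre. The study describes the deletion as specific to the mammary epithelium. Its staining of Ezh2-/- tumours showed H3K27me3, the histone mark made by Ezh2, only in cells negative for an epithelial keratin, without naming neutrophils. Whether Ezh2 was intact in infiltrating cells such as neutrophils was not measured here. The 5 Ezh2-/- and 5 Ezh2+/+ tumours were whole tumours frozen at endpoint, an endpoint set by tumour burden and not by age. Doxycycline was given to young adult mice, and since tumours arose later in the Ezh2-/- mice of the study, genotype and the age at harvest cannot be told apart. The age of each animal was not given in the sources used here. The labels call them biological replicates without saying that each came from a separate mouse, and p-values measure the spread between these samples. Values are deposited log2 signals, on which 1 unit is a doubling, and a gene "passed" at an adjusted p under 0.05 over all genes.

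Ezh2 itself was lower in every Ezh2-/- tumour (6.36 to 6.50) than in any Ezh2+/+ tumour (6.98 to 7.69), with a log2 fold change of -1.03 (SE 0.14, adjusted p = 0.00077, limma). Array medians were 4.35 to 4.46 in Ezh2-/- and 4.54 to 4.67 in Ezh2+/+ tumours, so the arrays were not on a common median as deposited and the ranges did not overlap. Pairs of arrays correlated at 0.965 to 0.982 within a genotype and at 0.930 to 0.962 between genotypes. Luminal epithelium markers had list means of 8.74 to 9.20 in Ezh2-/- and 8.71 to 9.11 in Ezh2+/+ tumours, and 0 of 9 passed (limma, 3 at an unadjusted p under 0.05, 0 after adjustment by the methods' test, which assumes equal variances and fits each gene alone). Skeletal muscle markers reached 8.81 in 1 Ezh2-/- tumour against 4.93 at most in Ezh2+/+ tumours, with the highest Acta1 in Ezh2-/- tumours 1 and 5.

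S100a8 and S100a9 lie next to each other on chromosome 3, with 0 annotated genes starting between them, and are read from opposite strands. The 250 bases before the RefSeq start of these genes and of Cd177, the member that was higher in Ezh2-/- tumours, are shown because of these 3 genes 1 was lower, 1 was higher and 1 did not pass (build GRCm38.p6, 5' to 3' on the gene's strand). Capitals mark matches to GAGGAA or its complement TTCCTC, a core that the myeloid factor PU.1 binds, or to TTGCNNAA or its complement TTNNGCAA, a motif of C/EBP factors.
S100a8, chr3:90668821-90669070, plus strand: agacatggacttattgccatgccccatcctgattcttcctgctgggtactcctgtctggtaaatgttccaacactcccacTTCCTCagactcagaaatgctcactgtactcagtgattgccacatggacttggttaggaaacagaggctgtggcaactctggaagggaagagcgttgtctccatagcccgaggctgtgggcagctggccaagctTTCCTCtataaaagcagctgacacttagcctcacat
S100a9, chr3:90695722-90695971, minus strand: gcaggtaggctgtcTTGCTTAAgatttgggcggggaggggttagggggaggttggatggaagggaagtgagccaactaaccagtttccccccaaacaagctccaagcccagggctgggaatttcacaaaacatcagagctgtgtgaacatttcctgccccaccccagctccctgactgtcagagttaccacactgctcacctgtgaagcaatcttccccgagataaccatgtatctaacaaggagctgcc
Cd177, chr7:24760312-24760561, minus strand: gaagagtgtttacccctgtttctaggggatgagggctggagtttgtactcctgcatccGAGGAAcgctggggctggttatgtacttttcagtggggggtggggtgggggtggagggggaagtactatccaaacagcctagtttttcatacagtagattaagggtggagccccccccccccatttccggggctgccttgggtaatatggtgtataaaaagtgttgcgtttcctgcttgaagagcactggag

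All 10 members matched an entry in the RefSeq promoter table of 32851 promoters. The PU.1 letters were in the windows of 5 members (S100a8, Csf3r, Cd177, Trem1 and Mpo) and in 23.3% of all promoters. The C/EBP letters were in the windows of 3 members (S100a9, Retnlg and Ngp) and in 9.56% of all promoters. The PU.1 letters were in the windows of both Cd177, which was higher, and Trem1, which was lower. The C/EBP letters were in those of S100a9 and Retnlg, both lower, and of Ngp, which did not pass, but not in that of Trem1. S100a8 and S100a9 did not share a motif. Whether either motif went with the direction of the measurements was not tested. CpG dinucleotides, the sites of DNA methylation, numbered 2 to 6 in the members against a median of 6 over all promoters, with 9 of 10 members below that median. A match is a stretch of letters in a window and not a measured binding site.

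The members did not move as 1 group. Of the 10, S100a9, Retnlg and Trem1 were lower in Ezh2-/- tumours, Cd177 was higher, and S100a8, Csf3r, Ngp, Camp, Il1b and Mpo did not pass. Over all genes 7.29% were called higher and 7.56% lower. The 3 lower members made up more of the list than that share, but all 3 lay in the dimmest 40% of genes, where 12.7% were lower. The members were also chosen with earlier results of these data known, so the larger share is no test. The 1 higher member was close to what the 7.29% gives for 10 genes. The members' median log2 fold change was -0.26, and 7 of the 10 were negative. The median was 0.03 over all genes and -0.14 over the dimmest 40%, where 6 members lay. The same 4 members were those whose genotypes did not overlap, 3 below and 1 above, where 6.63% of all genes lay wholly below and 5.05% wholly above.

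**Figure D1:**
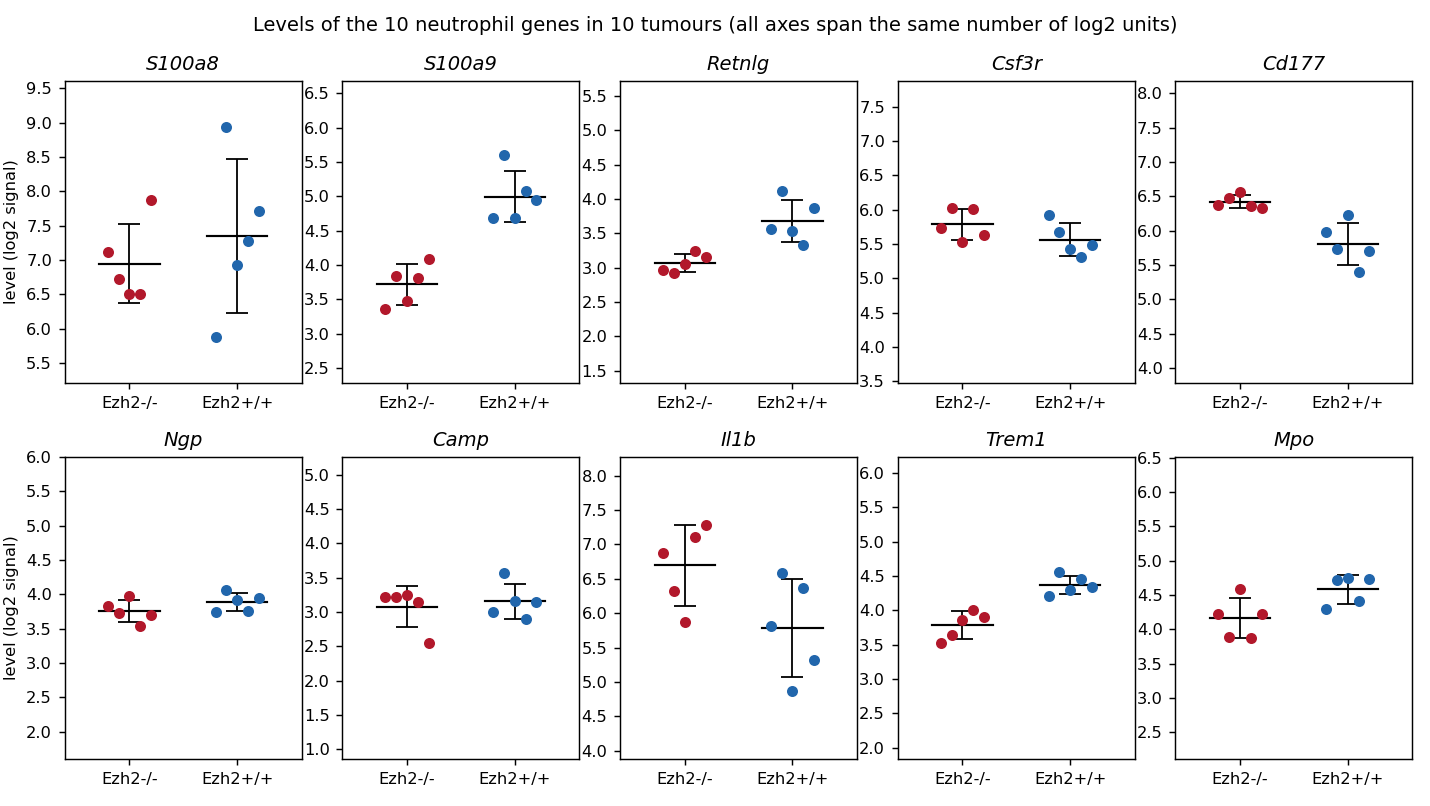
Level of each of the 10 neutrophil genes (log2 signal, y axis) in the 5 Ezh2-/- and the 5 Ezh2+/+ tumours. Points are tumours, the horizontal line is the mean and the bars are 1 SD. For S100a9, Retnlg and Trem1 the red points all lie below the blue ones and for Cd177 all above, whereas the other 6 genes overlapped.

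S100a9 had the largest difference of the 10 members. Its level in Ezh2-/- tumours 1 to 5 was 3.36, 3.83, 3.48, 3.81 and 4.09, and in Ezh2+/+ tumours 1 to 5 it was 4.68, 5.59, 4.68, 5.07 and 4.95. The highest Ezh2-/- tumour lay below the lowest Ezh2+/+ tumour. The means were 3.72 ± 0.29 and 4.99 ± 0.38 (SD, n = 5 each), a 2.43-fold difference with a log2 fold change of -1.28 (SE 0.19, adjusted p = 0.00165, limma). Leaving out each tumour in turn gave log2 fold changes of -1.37 to -1.13, and S100a9 passed in all 10 of these fits.

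S100a8, whose product is the partner of S100a9 in calprotectin, did not follow it. Its level in Ezh2-/- tumours 1 to 5 was 7.12, 6.72, 6.51, 6.51 and 7.87, and in Ezh2+/+ tumours 1 to 5 it was 5.88, 8.94, 6.92, 7.28 and 7.72. Ezh2+/+ tumours held both the lowest and the highest value, and the range of the Ezh2-/- tumours lay within theirs. The log2 fold change was -0.40 (SE 0.46, 95% interval -1.39 to 0.59, adjusted p = 0.564, limma). That interval includes the -1.28 measured for S100a9, so a fall of the same size was not excluded by the S100a8 data, and the difference between both genes was not tested.

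Within genotypes, however, S100a8 and S100a9 varied together. After each gene's genotype mean was subtracted, their levels had a Pearson r of 0.77 over 10 tumours. Both were highest in Ezh2-/- tumour 5 among the Ezh2-/- tumours and in Ezh2+/+ tumour 2 among the Ezh2+/+ tumours. These points share arrays and their scaling, and the value is a description without a test.

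Squamous epithelium can itself make calprotectin, and its markers were measured in the same tumours. Of 11 measured, 0 were higher and 2 lower in Ezh2-/- tumours (Krt6b and Krt1). Over all genes 7.29% were higher and 7.56% lower. Of the 11, 7 lay in the dimmest 40% of genes, Krt6b and Krt1 among them, and 12.7% of those dim genes were lower. The median log2 fold change of the markers was -0.67, against -0.14 over the dimmest 40%. Of the markers 3 had a positive and the others a negative difference. The mean of the list ranged from 4.39 to 4.58 in Ezh2-/- and from 4.36 to 6.39 in Ezh2+/+ tumours. Krt6b, a keratin of stressed and keratinizing epithelium, was 3.56-fold lower (log2 fold change -1.83, SE 0.36, adjusted p = 0.00738, limma). Krt6b also passed by the methods' test, and Krt1 did not. In Ezh2+/+ tumour 2, which had the highest S100a8 (8.94) and S100a9 (5.59), Krt6a was 7.14, Krt16 was 5.90 and Sprr1a was 9.52. Krt6a, Krt16 and Sprr1a were singled out after their values were seen. Ezh2-/- tumour 5 had the second-highest S100a8 of the 10 tumours, at 7.87, with the lowest Krt6a, at 2.73.

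Without Ezh2+/+ tumours 2 and 4, the 2 with the highest Krt6a and Sprr1a, the log2 fold change of S100a9 was -1.05 (adjusted p = 0.008) and that of S100a8 was 0.11 (adjusted p = 0.882, limma). S100a9 thus stayed lower without those tumours and S100a8 changed sign without passing in either fit. The part of squamous epithelium in the S100a8 and S100a9 levels was not tested further.

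**Figure D2:**
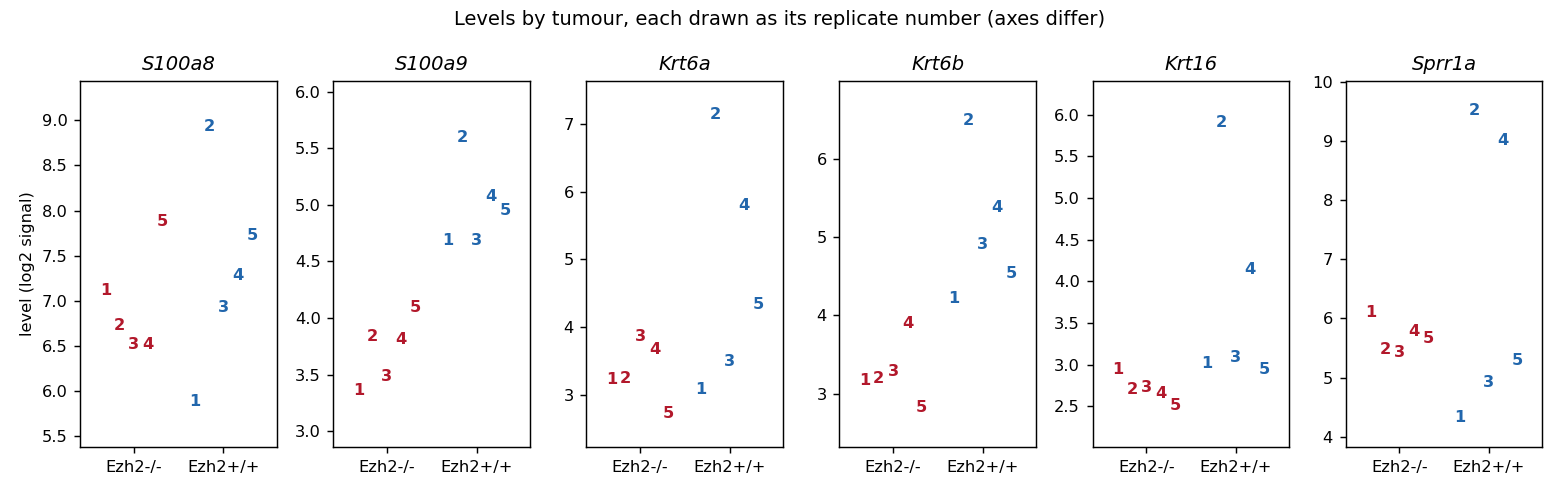
Levels (log2 signal, y axis) of S100a8, S100a9 and 4 genes of keratinizing epithelium, each tumour drawn as its replicate number by genotype. Ezh2+/+ tumour 2 was the highest of the 10 for all 6 genes, and Ezh2-/- tumour 5 had the second-highest S100a8 with the lowest Krt6a and Krt6b.

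Retnlg, a resistin-like protein known from mouse neutrophils, was lower in Ezh2-/- tumours. Its levels were 2.96, 2.92, 3.04, 3.24 and 3.16 in Ezh2-/- tumours 1 to 5 and 3.57, 4.11, 3.54, 3.32 and 3.87 in Ezh2+/+ tumours 1 to 5. The gap between the genotypes was narrow, from 3.24 to 3.32. The log2 fold change was -0.62 (SE 0.14, adjusted p = 0.017, limma), a 1.53-fold difference.

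Trem1, a receptor of myeloid cells that amplifies their inflammatory response, was also lower. Its levels were 3.52, 3.64, 3.86, 4.01 and 3.91 in Ezh2-/- tumours 1 to 5 and 4.21, 4.55, 4.30, 4.45 and 4.34 in Ezh2+/+ tumours 1 to 5. No tumour of one genotype reached the range of the other. The log2 fold change was -0.58 (SE 0.12, adjusted p = 0.00893, limma).

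Cd177, a surface glycoprotein of neutrophils, went the other way. Its levels were 6.38, 6.48, 6.56, 6.36 and 6.33 in Ezh2-/- tumours 1 to 5 and 5.98, 5.74, 6.22, 5.40 and 5.70 in Ezh2+/+ tumours 1 to 5. The Ezh2-/- tumours lay close together (SD 0.10) and above all Ezh2+/+ tumours (SD 0.31). The log2 fold change was 0.61 (SE 0.14, adjusted p = 0.0158, limma), a 1.53-fold difference. Retnlg, Trem1 and Cd177 passed in all 10 fits that left out 1 tumour, but Cd177 did not pass without Ezh2+/+ tumours 2 and 4 (log2 fold change 0.45, adjusted p = 0.062).

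Csf3r, the receptor for granulocyte colony-stimulating factor, did not pass. It ranged from 5.53 to 6.03 (median 5.74) in Ezh2-/- and from 5.32 to 5.92 (median 5.49) in Ezh2+/+ tumours, with overlap of all but 2 Ezh2-/- tumours (log2 fold change 0.22, 95% interval -0.09 to 0.53, adjusted p = 0.289, limma).

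Il1b, which encodes the inflammatory cytokine interleukin-1 beta and is made by neutrophils, monocytes and macrophages, had the largest positive difference of the members without passing. Its levels were 6.88, 6.32, 5.88, 7.11 and 7.29 in Ezh2-/- tumours 1 to 5 and 5.81, 6.58, 4.87, 6.37 and 5.32 in Ezh2+/+ tumours 1 to 5. In 3 Ezh2-/- tumours it lay above every Ezh2+/+ tumour, and the other 2 fell within their range. The 3 were Ezh2-/- tumours 1, 4 and 5, which also had the highest list means of adipocyte markers (7.49, 6.67 and 6.09, against 5.06 and 5.17 in Ezh2-/- tumours 2 and 3 and 4.90 to 5.81 in Ezh2+/+ tumours), with 0 of 7 passing in limma, and of mast cell markers (4.82, 4.82 and 4.73, against 3.82 and 3.98 and 3.66 to 3.93). These 3 tumours also had the highest list means of macrophage markers (7.66, 7.67 and 7.78, against 7.43 at most in the other tumours). The same held for monocyte markers (7.04, 6.76 and 6.73, against 6.67 at most) and for T and NK cell markers (5.12, 5.13 and 5.86, against 4.83 at most). The part of these tissues and cells in the Il1b level was not tested. The log2 fold change was 0.91 (SE 0.34, adjusted p = 0.0862, limma). It passed in 1 of 10 fits that left out 1 tumour, that without Ezh2+/+ tumour 2 (adjusted p = 0.0474), and without both Ezh2+/+ tumours 2 and 4 the log2 fold change was 1.36 (adjusted p = 0.0286).

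The 3 granule genes of the set did not pass. Mpo, the myeloperoxidase of the primary granules, was 4.22, 3.89, 4.58, 3.88 and 4.22 in Ezh2-/- tumours 1 to 5 and 4.30, 4.71, 4.75, 4.42 and 4.73 in Ezh2+/+ tumours 1 to 5. It was below all Ezh2+/+ tumours in 4 of 5 Ezh2-/- tumours, with a log2 fold change of -0.42 (SE 0.15, adjusted p = 0.0747, limma), and it passed without Ezh2-/- tumour 3, the highest of its genotype (adjusted p = 0.0351).

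Ngp and Camp encode related proteins of the secondary granules, Camp being the precursor of the antimicrobial peptide CRAMP. Ngp ranged from 3.55 to 3.98 in Ezh2-/- and from 3.74 to 4.06 in Ezh2+/+ tumours (log2 fold change -0.13, SE 0.11, adjusted p = 0.431, limma). Camp ranged from 2.55 to 3.24 and from 2.90 to 3.57 (log2 fold change -0.08, SE 0.16, adjusted p = 0.759). Both overlapped widely, and their small negative differences became small positive ones under each of 3 other scalings of the arrays.

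The calls split by level among the members, as they did over the whole array. S100a9, Retnlg, Ngp, Camp, Trem1 and Mpo lay in the dimmest 40% of genes by mean signal, and all 3 lower members were among these 6. S100a8, Csf3r, Cd177 and Il1b were brighter. In the dimmest 40% of all genes, 12.7% were lower and 1.49% higher, with a median log2 fold change of -0.14. Among the brighter genes 4.1% were lower and 11.2% higher, with a median of 0.15. S100a9 stood far from the median of the dim genes, whereas Ngp and Camp were nearer to 0 than that median. The lower array medians of the Ezh2-/- tumours moved with this split, and their part in it was not tested beyond the scalings that follow.

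**Figure D3:**
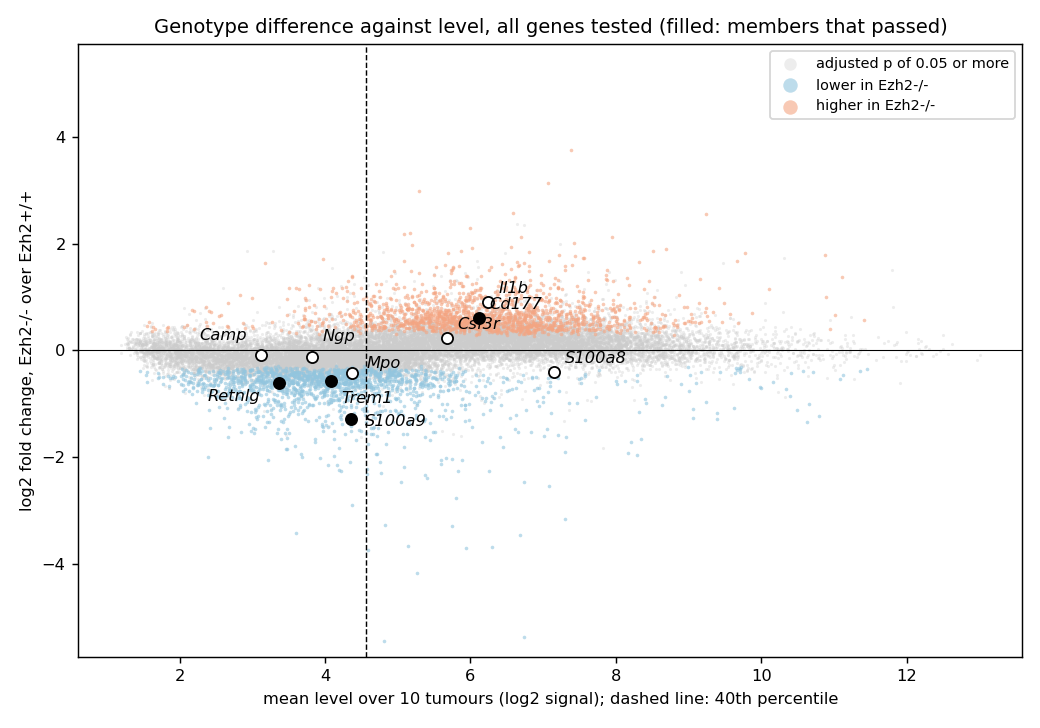
Log2 fold change of Ezh2-/- over Ezh2+/+ tumours (y axis) against mean level over 10 tumours (log2 signal, x axis) for all genes tested, with the 10 members named. Filled circles are the 4 members that passed, open circles the 6 that did not, and the dashed line is the 40th percentile of level. S100a9, Retnlg and Trem1 lie left of the line among many lower genes, and Cd177 right of it among many higher genes.

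Rescaling the arrays separated S100a9 from the other called members. After quantile normalization 6.03% of all genes were higher and 3.98% lower, and S100a9 (log2 fold change -1.12, adjusted p = 0.006) and Cd177 (0.54, adjusted p = 0.040) passed, while Retnlg (adjusted p = 0.071) and Trem1 (adjusted p = 0.058) did not. After cyclic loess 4.93% were higher and 4.49% lower, and S100a9 alone passed (-1.12, adjusted p = 0.006), with Cd177 at 0.051, Trem1 at 0.063 and Retnlg at 0.078. Under median centring the middle gene of the array stood at a log2 fold change of 0.20, with 23.5% of genes higher and 4.18% lower. On that shifted scale S100a9 was at -1.11, Retnlg at -0.44, Trem1 at -0.41, Cd177 at 0.79 and Il1b at 1.08, and all of these 5 passed (limma). S100a9 was thus called under each of the 4 scalings, and Retnlg, Trem1 and Cd177 kept their direction but not always their call.

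**Figure D4:**
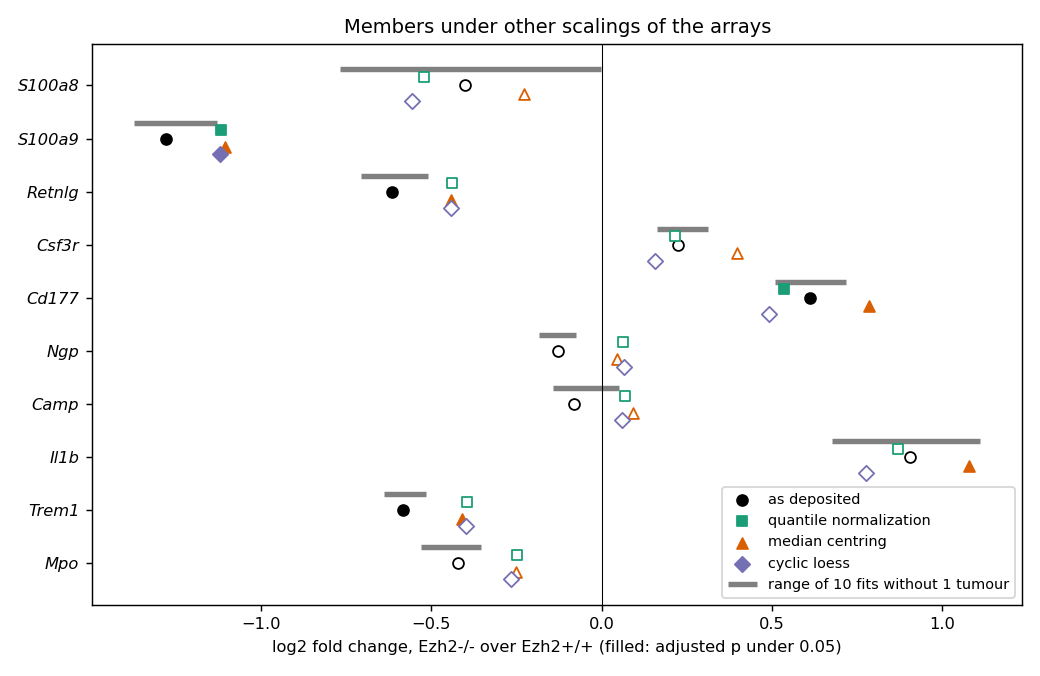
Log2 fold change of the 10 members (x axis, Ezh2-/- over Ezh2+/+) in the deposited values and after quantile normalization, median centring and cyclic loess. Filled symbols had an adjusted p under 0.05 and grey bars span the 10 fits that left out 1 tumour. S100a9 was filled in all 4 cases, and Ngp and Camp crossed 0.

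Among tumours of the same genotype the members varied in part together and in part in opposite directions. Over the 45 pairs of members the median r of deviations from the genotype means was 0.23 (10 tumours), with 8 pairs above 0.5 and 15 below 0. The most alike pair was Ngp and Mpo (r = 0.87), followed by S100a8 and S100a9 (0.77), S100a9 and Trem1 (0.69) and S100a9 and Il1b (0.66). The least alike were Csf3r and Mpo (-0.71) and Cd177 and Il1b (-0.70). The mean of S100a8 and S100a9 was closer to S100a8 (r = 0.98) than to S100a9 (0.87). S100a8 varied more, with an SD of 0.57 in Ezh2-/- and 1.12 in Ezh2+/+ tumours, against 0.29 and 0.38 for S100a9. Cd177 ran opposite to this mean (r = -0.45), Csf3r was near 0 (-0.20), and Retnlg (0.64), Il1b (0.56) and Trem1 (0.51) were positive.

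After the same subtraction of genotype means, genes were ranked by the likeness of their deviations to those of the mean of S100a8 and S100a9 over the 10 tumours. Members, predicted genes, clones, ribosomal protein genes, pseudogenes and small RNAs were left out of the ranking. The 6 most alike were Faap24 (r = 0.97), Golt1b (0.96), Gstp3 (0.95), Cela1 (0.94), Nfu1 (0.94) and Uros (0.94). None of these 6 is one of the listed neutrophil genes, and none differed between genotypes in the limma fit (adjusted p from 0.258 to 0.886). Among all genes, with none left out and S100a8 itself counted, 20 had an r of deviations above 0.9. These values are a description over points that share arrays and their scaling.

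Other genes of neutrophil biology were called in both directions. Of 110 measured of 114 in 10 lists, 14 (12.7%) were higher and 8 (7.27%) lower, where 7.29% and 7.56% of all genes were called. The share called lower was close to that of all genes. The higher genes included several that are not specific to neutrophils, such as Ltf, Retnla, Ptafr and Csf1. The median log2 fold change was 0.15, against 0.03 over all genes. It was 0.15 over all brighter genes and -0.14 over the dimmest 40%, where 37 of the 110 lay. Of the called genes, 13 of the 14 higher ones were among the brighter genes and 5 of the 8 lower ones among the dimmest, a division by level that all genes showed as well. After quantile normalization 8 of the 14 higher and 1 of the 8 lower genes kept their call, and after cyclic loess 8 and 3. By the methods' test 4 higher and 4 lower calls were kept. In the fits without 1 tumour, 7 to 21 of these 22 calls were kept (7 without Ezh2-/- tumour 4).

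Among 20 further granule proteins, 2 were higher and 2 lower (median log2 fold change -0.01). Ltf, the lactoferrin of the secondary granules and also a product of mammary epithelium, was 5.90-fold higher (log2 fold change 2.56, SE 0.63, adjusted p = 0.0196, limma). Its levels were 9.79 to 11.07 in Ezh2-/- and 5.56 to 9.25 in Ezh2+/+ tumours, without overlap, whereas Ngp and Camp of the same granules did not pass. Padi4, the enzyme that citrullinates histones in neutrophils, was higher (0.40) and Chil3, a chitinase-like protein of myeloid cells (-0.57), and Ms4a3, a gene of granulocyte precursors (-0.40), were lower. Ltf and Padi4 kept their call under the 3 other scalings, and Chil3 and Ms4a3 lost theirs under all 3. Of these 4 Ms4a3 alone passed the methods' test. Ltf passed in all 10 fits without 1 tumour, Ms4a3 in 6, Chil3 in 4 and Padi4 in 3.

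Among 23 measured surface receptors, 4 were higher and 2 lower (median 0.26). Cxcr2, the receptor for neutrophil-attracting chemokines, was lower without overlap (4.43 to 4.97 in Ezh2-/- and 5.06 to 5.52 in Ezh2+/+ tumours, log2 fold change -0.58, adjusted p = 0.017). Clec4e, a receptor for products of damaged cells and mycobacteria, was lower too, with 4 of 5 Ezh2-/- tumours below all Ezh2+/+ tumours (-0.90, adjusted p = 0.0148). Ptafr (0.64), Csf2ra (0.61), Itgb2 (0.65) and Tlr2 (0.40), receptors and an integrin chain shared with macrophages, were higher. Quantile normalization and cyclic loess each ended the calls of Ptafr, Csf2ra, Itgb2, Tlr2 and Clec4e, and of these 5 Tlr2 alone passed the methods' test. Cxcr2 lost its call under quantile normalization and median centring. In the fits without 1 tumour Cxcr2 and Clec4e passed in all 10, Ptafr in 6, Csf2ra and Itgb2 in 4 and Tlr2 in 3. The integrin chain Itgam, partner of Itgb2, was at 0.61 and did not pass (adjusted p = 0.0921).

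Of 15 growth factors and chemokines, 1 was higher and 3 lower (median -0.19). Cxcl2, a ligand of Cxcr2, was 1.90-fold lower without overlap (3.42 to 4.47 in Ezh2-/- and 4.53 to 4.94 in Ezh2+/+ tumours, log2 fold change -0.93, SE 0.19, adjusted p = 0.0087) and kept its call under all 3 other scalings. Cxcl5, another Cxcr2 ligand, was at -0.49 (adjusted p = 0.0485) and Csf2 at -0.40 (adjusted p = 0.0192), and neither kept its call under any of the 3. Csf1, the growth factor of macrophages, was higher (0.50) and kept its call under median centring alone of the 3. Csf3, the ligand of Csf3r, did not pass (0.17, adjusted p = 0.315, limma).

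The partners of the individual members showed the following. Of 13 further genes of the interleukin-1 pathway, 2 were higher, the receptor Il1r1 (log2 fold change 0.96) and the inhibitory kinase Irak3 (0.69), and none was lower (median 0.13). Of 14 other S100 genes 0 passed in limma (4 at an unadjusted p under 0.05, 0 by the methods' test after adjustment, median 0.02), the nearest being S100a10 (-0.39, adjusted p = 0.092) and S100b (0.34, adjusted p = 0.115). Of 6 genes for receptors of S100a8 and S100a9, Emb passed and was higher (0.94), and Tlr4 (0.23) and Ager (-0.31) did not. Of 3 other resistin genes, Retnla, a product of alternatively activated macrophages, was 3.29-fold higher (log2 fold change 1.72), opposite to Retnlg. Of 5 genes of the NADPH oxidase Rac2 passed (0.79), with all 5 positive. These 5 were all among the brighter genes, and their median was 0.37, against 0.15 over all brighter genes. By the methods' test Irak3 passed and Il1r1, Emb, Retnla and Rac2 did not, and Rac2 also lost its call under quantile normalization and cyclic loess. Of 3 other heme peroxidases 0 passed (limma, 1 at an unadjusted p under 0.05, 0 by the methods' test after adjustment).

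Of 10 transcription factors listed for the granulocyte lineage, not all of them specific to it, 2 were higher and 1 lower. Runx1 (log2 fold change 1.16, 7.34 to 8.17 in Ezh2-/- and 5.40 to 7.17 in Ezh2+/+ tumours) and Irf8 (0.39) were higher. Cebpe, which drives secondary granule genes such as Ngp and Camp, was lower (-0.47, adjusted p = 0.0411, limma). Runx1 and Irf8 kept their call under the 3 other scalings, and Cebpe under cyclic loess alone. Irf8 passed the methods' test and Runx1 and Cebpe did not, and in the fits without 1 tumour Runx1 passed in 8 of 10, Irf8 in 6 and Cebpe in 3.

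**Figure D5:**
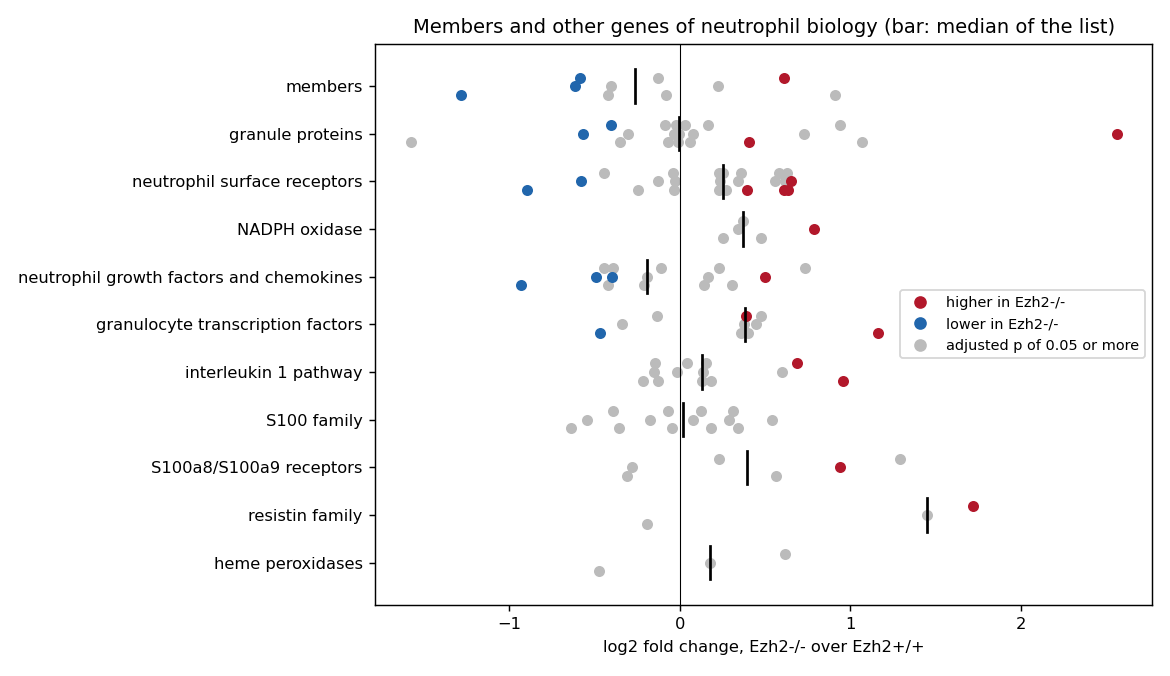
Log2 fold change (x axis, Ezh2-/- over Ezh2+/+) of the 10 members and of the measured genes of 10 further lists of neutrophil biology (rows). Red genes were higher and blue genes lower at an adjusted p under 0.05, grey genes did not pass, and black bars are list medians. The members' median was -0.26, and the other lists held 14 higher and 8 lower genes.

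Several members are also made by other cells, whose marker lists were measured in the same tumours. Macrophage markers were positive in 11 of 12 genes with 3 higher (Csf1r 0.92, Adgre1 0.95 and C1qc 0.76) and 0 lower, and the list mean was 7.0 to 7.78 in Ezh2-/- and 6.61 to 7.20 in Ezh2+/+ tumours. Monocyte markers had 0 of 6 passing in limma (2 at an unadjusted p under 0.05, 0 by the methods' test after adjustment, median 0.23), with list means of 6.27 to 7.04 and 6.09 to 6.67. The part of these cells in Il1b and in the shared receptors was not tested. T and NK cell markers had 3 of 9 higher (Cd4, Cd3e and Cd3g) and 0 lower, with list means of 4.73 to 5.86 and 4.40 to 4.67. Of these 6 macrophage and T cell genes, Csf1r and Cd4 alone passed under all 3 other scalings and by the methods' test. All 12 macrophage markers were among the brighter genes, and 3 of the 9 T and NK cell markers were among the dimmest. Of all brighter genes 11.2% were higher, with a median log2 fold change of 0.15, so a positive difference was the more common one there. The list medians were 0.62 for macrophage and 0.37 for T and NK cell markers, and their distance from that median was not tested. Mast cell markers had 1 higher (Mcpt4) and 1 lower (Hdc) of 8, and their list mean was 3.82 to 4.82 and 3.66 to 3.93. Neither gene passed the methods' test. Hdc lost its call under all 3 other scalings and passed in 2 of 10 fits without 1 tumour.

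Eosinophil (6), B cell (5), red cell (3) and adipocyte markers (7 measured) held 0 genes that passed by limma or, after adjustment, by the methods' test, with 1, 0, 1 and 4 genes at an unadjusted p under 0.05. Of dendritic cell markers Siglech alone was lower (-0.77). Platelet markers had Pf4 higher (1.01) and Gp9 (-0.57) and Gp6 (-0.65) lower. None of these 3 passed by the methods' test, and in the fits without 1 tumour Pf4 and Gp6 passed in 2 of 10 and Gp9 in 4. Without Ezh2-/- tumours 1 and 5, those with the highest muscle signal, S100a9 (-1.29), Retnlg (-0.61), Trem1 (-0.53) and Cd177 (0.66) still passed, and Il1b was at 0.65 (adjusted p = 0.259, limma).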

How the data were processed

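Total RNA of 5 Ezh2-/- and 5 Ezh2+/+ tumours was hybridised to Affymetrix Mouse Gene 2.0 ST arrays, 1 sample per array. The authors normalized the arrays at gene level with Affymetrix Expression Console, and the deposited values were taken as log2 signal from their range (0.595 to 13.2). The algorithm and the log base are not given in the sources used here, and scanner files were not used. The number of arrays limits the precision. Of 41345 probe sets, 23521 had 1 gene symbol, 1820 several and 16004 none in the platform table (23328 matched RefSeq by Entrez ID). The probe set with the highest mean was read for each of 22180 genes.

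Genotypes were compared with limma (version 3.58.1, R 4.3.3) on the values as deposited, without covariates or a filter on dim genes, with Benjamini-Hochberg adjustment over all genes. The script was tested on simulated data. Alternatives were the methods' own equal-variance test, an intensity trend, array weights, 3 rescalings, a filter on the dimmest 40% of genes, other readings of probe sets, a replicate block, and leaving out tumours. All 10 members were named, with up to 4 genes of each list that passed (those of smallest adjusted p) or 2 where none passed. The 6 genes most like S100a8 and S100a9 were named too, with members, predicted genes, clones, ribosomal protein genes, pseudogenes and small RNAs left out. The members and the 23 lists were chosen with earlier results of these data known. Promoters are RefSeq's (GRCm38.p6).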

Additional observations from a re-analysis of the deposited data

Results flagged for a closer look

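In 134 groups of 5 tumours (67 named genes in 2 genotypes), 6 held a tumour far from the other 4 by Dixon's criterion, which chance exceeds in about 1 in 20 groups. Camp, the antimicrobial peptide precursor, was 2.55 in Ezh2-/- tumour 5 against 3.14 to 3.24 in the other Ezh2-/- tumours. The B cell marker Ms4a1 was 5.98 in the same tumour against 2.99 to 3.57, the plasmacytoid dendritic cell marker Siglech was 4.61 against 3.96 to 4.15, and Golt1b was 8.31 against 8.16 to 8.20. The interleukin-1 receptor gene Il1r1 was 5.62 in Ezh2-/- tumour 3 against 6.47 to 6.55. Nfu1 was 7.29 in Ezh2+/+ tumour 2, which also had the highest S100a8, against 6.87 to 6.99.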

How the results depend on the processing

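S100a9 passed, and S100a8 did not, in every setting that tested it, and S100a9 was left out by the filter on dim genes. S100a8 had a log2 fold change of -0.77 to -0.0031 when 1 tumour was left out and of 0.11 without Ezh2+/+ tumours 2 and 4, an exclusion chosen after seeing the data. Ngp changed sign under quantile normalization (0.063), median centring (0.044) and cyclic loess (0.067), and Camp did so under the same 3 (0.069, 0.093 and 0.060), in the fits without 1 tumour (-0.14 to 0.051, positive without Ezh2-/- tumour 5 or Ezh2+/+ tumour 2) and without Ezh2-/- tumours 1 and 5 (0.048, also chosen after seeing the data). Ms4a1 went from -0.083 to 0.66 when 1 tumour was left out, negative without Ezh2-/- tumour 5, and was -0.19 without Ezh2-/- tumours 1 and 5. The cause was not tested.

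The count of members that passed as higher, 1 in the deposited values, was 2 after median centring and 0 after cyclic loess (limma, 2 at an unadjusted p under 0.05), and 1 to 2 without 1 tumour (2 without Ezh2+/+ tumour 2). The count lower, 3 in the deposited values, was 1 after quantile normalization, 1 after cyclic loess and 3 to 4 without 1 tumour. It was 0 without the dimmest 40% of genes, where 4 members remained to be tested and 0 were lower at an unadjusted p under 0.05 (limma). The methods' own test gave 1 higher and 4 lower members at its unadjusted threshold and 1 and 3 after adjustment. Of the other neutrophil genes, 14 higher in the deposited values, 4 passed as higher with the methods' own test and 35 after median centring. Without 1 tumour the count was 3 to 17 (5 without Ezh2-/- tumour 1, 3 without Ezh2-/- tumour 4, 9 without Ezh2+/+ tumour 3, 9 without Ezh2+/+ tumour 4 and 7 without Ezh2+/+ tumour 5). Of 8 lower in the deposited values, the same settings gave 5 and 2, quantile normalization 1, cyclic loess 3, the filter on dim genes 3, and the fits without 1 tumour 4 to 10 (5 without Ezh2-/- tumour 1, 4 without Ezh2-/- tumour 4 and 4 without Ezh2+/+ tumour 5).

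No label ties samples of the same replicate number to each other, and the correlations of their deviations from the genotype means ran from -0.04 to 0.34, so the numbers were not used as pairs and pairing was not shown either way. With a replicate block 2 members were higher and 4 lower, because Il1b (adjusted p = 0.0406) and Mpo (adjusted p = 0.0499) passed (limma), and 20 other neutrophil genes were higher and 11 lower. Calls rose over all genes too, from 7.29% to 11.5% higher and from 7.56% to 8.54% lower. Dim signal limits 6 of the members, for which no detection call was used.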
